A study of Mus musculus with 14 samples.

Results

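The genes described here are 53 mouse genes of DNA replication and mitosis, followed through the acetylation of histone H3 at lysine 27 (H3K27ac, a mark of active promoters and enhancers) in small intestinal organoids. Of the 53 genes, 33 act around S phase, 18 act in mitosis and 2 encode inhibitors of cyclin-dependent kinases. Each H3K27ac region of 2000 bp was given to the nearest protein-coding gene span within 100 kb, and a region equally near to several spans was counted for each. By that rule 52 of the 53 genes had at least 1 region, and together they held 124 of the 47713 regions that were given to a gene. Mcm2, a subunit of the replicative helicase, had none and is not described further.

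Organoids of 1 line from a female mouse, labelled line26 wild type, Lgr5GFPDTR/+, carry a reporter and toxin receptor allele at Lgr5 in both arms. In the RANKL arm, organoids had CHIR99021 at 3 µM, which activates the Wnt pathway, together with valproic acid at 1.5 mM, which blocks histone deacetylases. After 3 days of both came a day in ENR medium and then 100 ng/mL RANKL, with harvest at day 6. ENR medium holds EGF, NOGGIN and R-SPONDIN1. Control organoids stayed in ENR medium, so the contrast is of the whole protocol for M cells (the antigen-sampling cells of the gut epithelium) against ENR medium, not of RANKL alone. Chromatin was profiled by ChIPmentation, in which a transposase adds adapters to antibody-bound chromatin. H3K27ac and the transcription factor ONECUT2 each had 3 control and 3 RANKL libraries, from 3 differentiation experiments, and p-values measure the spread between those experiments of 1 mouse line.

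Control H3K27ac libraries held 5434172 to 9160267 reads in regions and RANKL libraries 2745451 to 3902301, so depth and condition cannot be told apart. Values per library are CPM, region reads scaled to library depth after TMM normalisation, and all regions have the same length. Summed CPM over 9 intestinal epithelial marker genes was 1975 to 2149 in controls and 1973 to 2048 with RANKL. Sums over 6 stem and transit-amplifying markers were 786 to 819 and 689 to 739 CPM, with Lgr5, Ascl2 and Sox9 lower, Olfm4 and Axin2 higher and Smoc2 not called. Those over 8 M cell markers were 343 to 356 and 815 to 872 CPM, those over 8 mesenchymal markers 243 to 250 and 315 to 331 CPM, and those over 6 endothelial markers 376 to 390 and 458 to 461 CPM. Leukocyte markers Cd3e and Lyz2 had no region, and the 5 leukocyte markers that had one summed to 77.9 to 92.2 CPM in controls and 88.6 to 100.3 CPM with RANKL. In bulk chromatin, fewer cells of a type and less acetylation per cell cannot be told apart, and the part of cell composition in the results below was not tested.

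DNA replication starts when the origin recognition complex, Cdc6 and Cdt1 load the ring of Mcm2 to Mcm7 onto DNA, and Cdc45 and the GINS complex turn that ring into the active helicase. Many of these genes are controlled by E2F factors, which are released when cyclin-dependent kinases phosphorylate the retinoblastoma protein. Genes of mitosis are commonly controlled later, through the cell cycle homology region (CHR) bound by the DREAM and MuvB complexes and through CCAAT boxes bound by NF-Y. In the intestinal crypt, transit-amplifying cells divide rapidly and stop dividing as they differentiate.

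Promoter sequences from RefSeq (GRCm38.p6, the mm10 build) were matched for 43 of the 53 genes, over 250 bases before to 50 after the start. Motifs searched on both strands were the E2F sites TTTCCCGC, TTTGGCGC, TTTGGCGG and TTTCGCGC, the CHR letters TTTGAA and TTCGAA, the CCAAT box CCAAT and the ONECUT core ATCAAT. None of these letter strings contains another, though matches can overlap, as the 2 leading E2F matches of Mcm6 do. The sequences below show the 120 bases before the start of 4 S phase genes whose start regions fell and of Cdc45, the 1 S phase gene whose start region rose. Capitals mark E2F, CHR and CCAAT matches, on either strand.
Mcm6 (chr1:128359706-128359825, minus strand): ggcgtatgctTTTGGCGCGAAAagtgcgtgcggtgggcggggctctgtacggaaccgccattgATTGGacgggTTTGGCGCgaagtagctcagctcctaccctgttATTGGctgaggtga
Rfc3 (chr5:151651209-151651328, minus strand): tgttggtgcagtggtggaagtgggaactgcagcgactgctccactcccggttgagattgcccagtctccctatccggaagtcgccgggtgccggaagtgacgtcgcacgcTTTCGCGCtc
Pcna (chr2:132253181-132253300, minus strand): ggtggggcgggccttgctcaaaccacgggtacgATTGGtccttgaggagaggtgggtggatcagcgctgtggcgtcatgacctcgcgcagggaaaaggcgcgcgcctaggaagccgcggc
Cdc25a (chr9:109875459-109875578, plus strand): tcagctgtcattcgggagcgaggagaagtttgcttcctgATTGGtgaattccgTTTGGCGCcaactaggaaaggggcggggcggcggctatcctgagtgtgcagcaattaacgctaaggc
Cdc45 (chr16:18811973-18812092, minus strand): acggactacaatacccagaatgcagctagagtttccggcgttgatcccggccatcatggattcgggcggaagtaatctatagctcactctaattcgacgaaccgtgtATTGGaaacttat

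Mcm6 holds E2F letters and CCAAT boxes, and Rfc3 an E2F match 10 bases before the start. Cdc25a carries an E2F match 67 bases before its start. Pcna shows a CCAAT box and no E2F letters in these bases, and Cdc45 shows a CCAAT box alone. The next 3 sequences are of mitotic genes and show the pairing of CHR letters and CCAAT boxes.
Cdk1 (chr10:69352913-69353032, minus strand): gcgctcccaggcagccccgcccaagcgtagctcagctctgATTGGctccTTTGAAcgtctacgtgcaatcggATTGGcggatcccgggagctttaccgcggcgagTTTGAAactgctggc
Top2a (chr11:99024190-99024309, minus strand): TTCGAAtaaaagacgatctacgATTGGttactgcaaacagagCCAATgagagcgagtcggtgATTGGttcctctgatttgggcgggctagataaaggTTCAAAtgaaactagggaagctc
Kif11 (chr19:37376262-37376381, plus strand): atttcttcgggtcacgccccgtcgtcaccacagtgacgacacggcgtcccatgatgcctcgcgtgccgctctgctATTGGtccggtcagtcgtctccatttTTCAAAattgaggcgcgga

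All 3 of these mitotic promoters hold at least 1 CHR match and 1 CCAAT box in the bases shown. Over whole windows, E2F letters occurred in 13 of 26 S phase genes (50.0%), in 1 of 15 mitotic genes (6.67%, Cdk1) and in 3.44% of 17492 protein-coding genes. CHR letters occurred in 11 of 15 mitotic genes (73.3%), 7 of 26 S phase genes (26.9%) and 20.2% of all. The same 11 mitotic genes also held a CCAAT box, a pair found in 8.22% of all genes. ONECUT core letters occurred in 4 S phase genes (15.4%) and no mitotic gene, against 7.65% of all. A match says only that the letters are present.

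**Figure D1:**
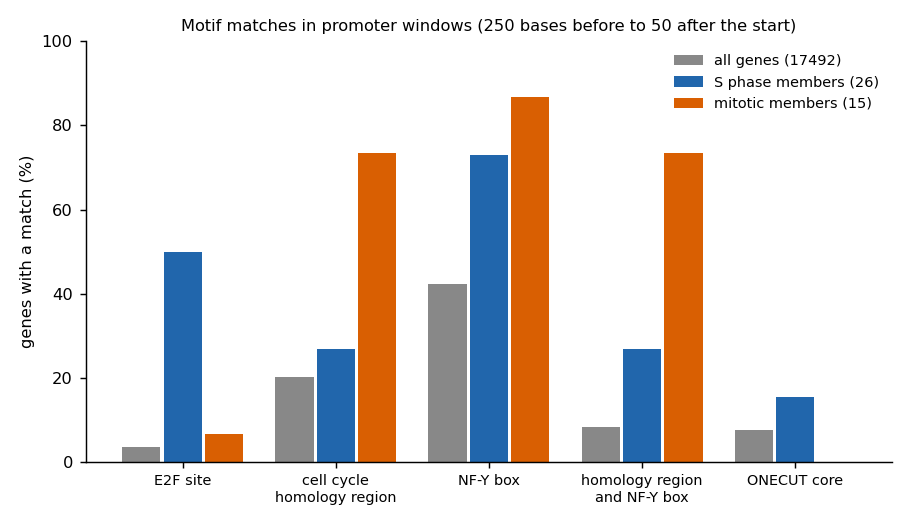
Share of genes with each motif in the promoter window (bars, %), for all genes (grey), S phase genes (blue) and mitotic genes (orange). E2F letters reach 50.0% in S phase genes and 6.67% in mitotic genes, and CHR letters 26.9% and 73.3%.

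Summed over all regions of each gene, H3K27ac fell with RANKL at 28 of the 52 genes and rose at 6, by edgeR's quasi-likelihood test with Benjamini-Hochberg adjusted p under 0.05. Over all 16871 genes tested, 27.1% were lower and 25.5% higher. The median log2 fold of the 52 genes was -0.39, against 0.01 over all genes. Every RANKL library lay below every control at 29 of the 52 genes (background 29.6%) and above at 5 (background 28.0%). Of 32 S phase genes 20 were lower and 3 higher (median -0.58). Of 18 mitotic genes 7 were lower and 2 higher (median -0.19). The difference between the S phase and mitotic groups was not tested. The counts of genes by role below are to be read against the same shares of all genes, 27.1% lower and 25.5% higher. Counts of start regions by role, defined next, are to be read against all start regions, 50.8% lower and 6.09% higher.

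**Figure D2:**
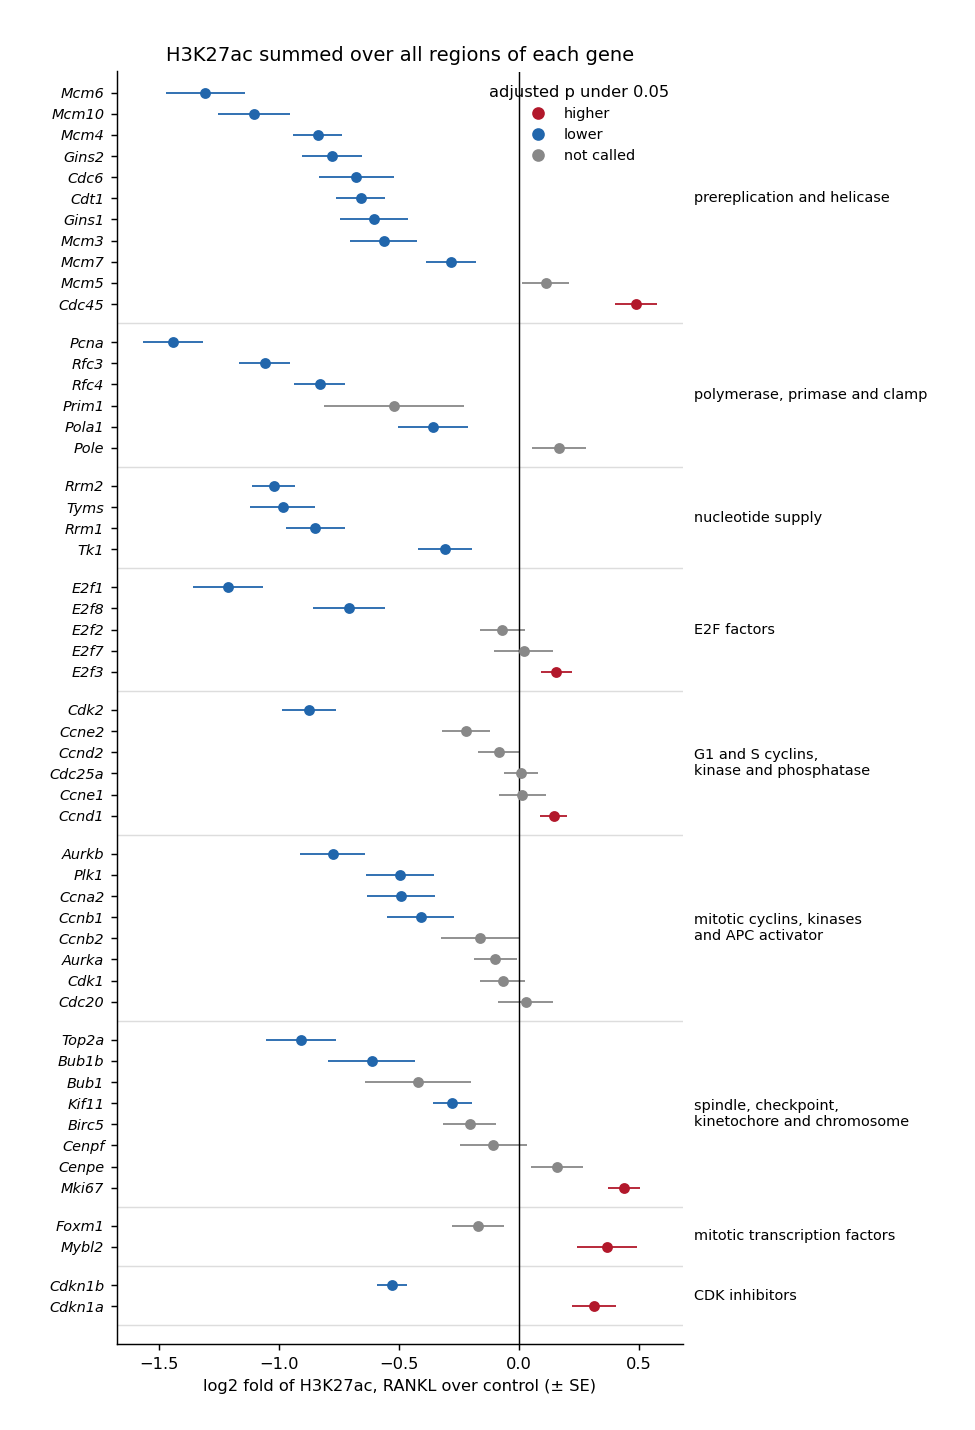
Log2 fold of H3K27ac (RANKL over control, horizontal axis, ± SE) for the 52 genes with a region, grouped by role. Blue points are lower, red points higher and grey points not called. Genes run from Pcna at -1.44 to Cdc45 at 0.49.

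Regions were also fitted one by one. At the 27 genes with exactly 1 region, values per gene and per region come from the same reads, scaled differently. A start region overlaps 1 kb either side of a RefSeq start, or, for 10 of the genes without one in use, 2 kb either side of a gene end. S phase genes had 33 start regions, of which 29 were lower and 1 higher, with a median log2 fold of -0.996. Mitotic genes had 18, of which 14 were lower and none higher, with a median of -0.56. Starts fell broadly across the genome relative to other regions: of 11867 start regions 50.8% were lower and 6.09% higher, with a median of -0.35. Libraries were scaled over all regions together, so these values are shares of reads, and absolute amounts of acetylation were not measured. Every RANKL library lay below every control at 43 of the 53 starts (background 54.6%) and above at 1 (background 7.95%). Of 35628 regions elsewhere, 14.4% were lower and 17.0% higher, with a median of 0.13.

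Set beside that general fall, S phase starts kept less of their signal. Their summed signal was 1432, 1388 and 1484 CPM in controls and 875, 851 and 822 CPM with RANKL, or 59.2% of control. Mitotic starts summed to 756, 718 and 725 CPM in controls and 530.5, 533 and 480 CPM with RANKL, or 70.2%. All start regions together kept 79.8%. Control and RANKL sums did not overlap in either group of genes. Nor did those over all start regions, at 472201 to 510150 CPM in controls and 378524 to 406052 CPM with RANKL. Median control levels were 42.4 CPM for S phase starts, 36.4 CPM for mitotic starts and 38.9 CPM for all. With the trend of the change on signal strength removed, 24 S phase starts were lower (median -0.71), as were 8 mitotic starts (median -0.27), against 32.7% of all starts (12.7% higher, median -0.17). The start calls of Cdk1, Tk1, Birc5, E2f3, Ccnb1, Aurka, Ccne2, Mcm7, Ccnd2, Foxm1 and Mki67 were lost by that step. With starts scaled on their own, per gene, 21 of 31 S phase genes were lower and 2 higher, and 4 of 18 mitotic genes were lower and 1 higher, against 22.9% and 22.6% of all genes.

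**Figure D3:**
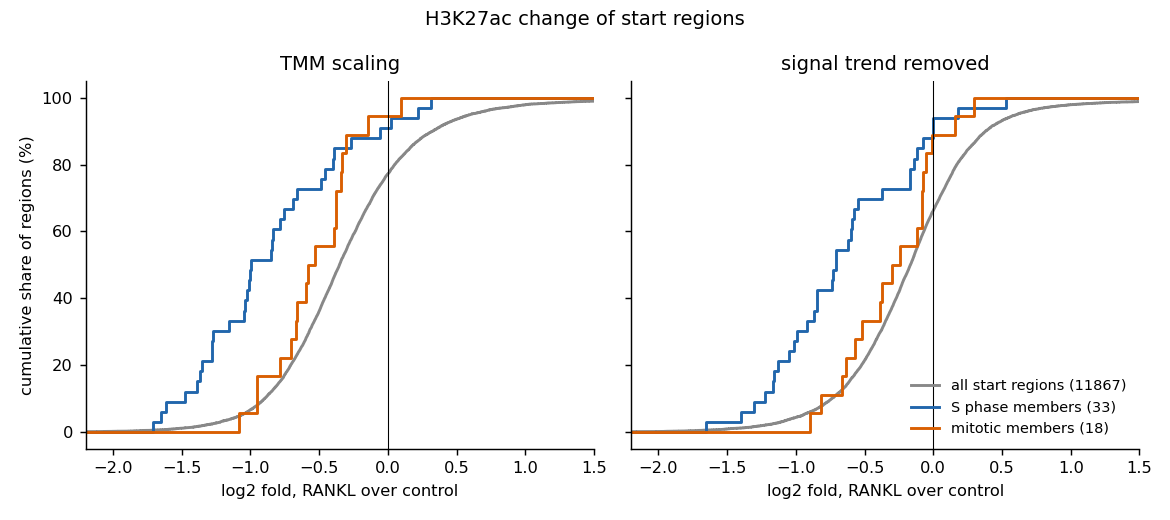
Cumulative share of start regions (%) by log2 fold for all 11867 start regions (grey), 33 of S phase genes (blue) and 18 of mitotic genes (orange), with TMM scaling (left) and with the signal trend removed (right). The S phase curve lies left of the grey curve in both panels, with medians of -0.996 and -0.71, and the mitotic curve lies nearer to it.

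Genes that load and start the helicase fell almost together: 9 of 11 were lower per gene and 10 of 11 start regions were lower. Mcm6, a helicase subunit, had 40.4, 45.2 and 44.4 CPM at its start in controls and 26.1, 12.7 and 10.4 CPM with RANKL. Its lowest control lay above its highest RANKL library, RANKL replicate 1, which stood well above the other two. The start region fell by 1.48 ± 0.15 on the log2 scale (SE, adjusted p = 1.94e-20), and the gene value ranged from -1.75 to -1.05 as single libraries were left out. Mcm10, which helps assemble the fork, went from 37.1, 39.0 and 46.3 to 13.2, 21.1 and 15.7 CPM. Its start region fell by 1.28 ± 0.15 on the log2 scale (adjusted p = 4.18e-16), without overlap. Mcm4, another helicase subunit, went from 75.6, 69.7 and 74.6 to 38.2, 40.4 and 31.1 CPM in a region shared with Prkdc, whose own share cannot be told apart.

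Mcm3, Gins2 and Gins1 starts fell by 1.28, 1.27 and 1.04 on the log2 scale. Those of Cdc6 and Cdt1, the loaders of the helicase, fell by 0.85 and 0.84. Mcm7 fell by 0.28 per gene, in a region shared with Ap4m1, and was not called with the signal trend removed (adjusted p = 0.224), nor without control replicate 1 (adjusted p = 0.128) or RANKL replicate 3 (0.0707). Cdc45 was the exception, at 64.4, 66.0 and 76.0 CPM in controls and 88.9, 84.8 and 82.7 CPM with RANKL. Its start region, shared with Ufd1, rose by 0.31 ± 0.11 on the log2 scale (adjusted p = 0.0136) with no overlap between groups.

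Mcm5, a further helicase subunit, changed in opposite directions in different regions. Its start held 43.3, 43.9 and 44.6 CPM in controls and 11.4, 13.0 and 16.6 CPM with RANKL, a fall of 1.65 ± 0.15 on the log2 scale (adjusted p = 1.15e-24). A region 28.3 kb outside the gene went from 3.28, 5.06 and 4.88 to 31.1, 26.6 and 30.9 CPM, a rise of 2.70 ± 0.21 (adjusted p = 2.87e-33). Summed over its 3 regions the gene was not called (log2 fold 0.11), and the start minus elsewhere difference in log2 fold was -3.11 ± 0.24 (interaction adjusted p = 4.01e-13). The gene was called lower when regions were limited to 10 kb (-0.93) and higher with the signal trend removed (0.24). The region was given to Mcm5 by distance alone.

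**Figure D4:**
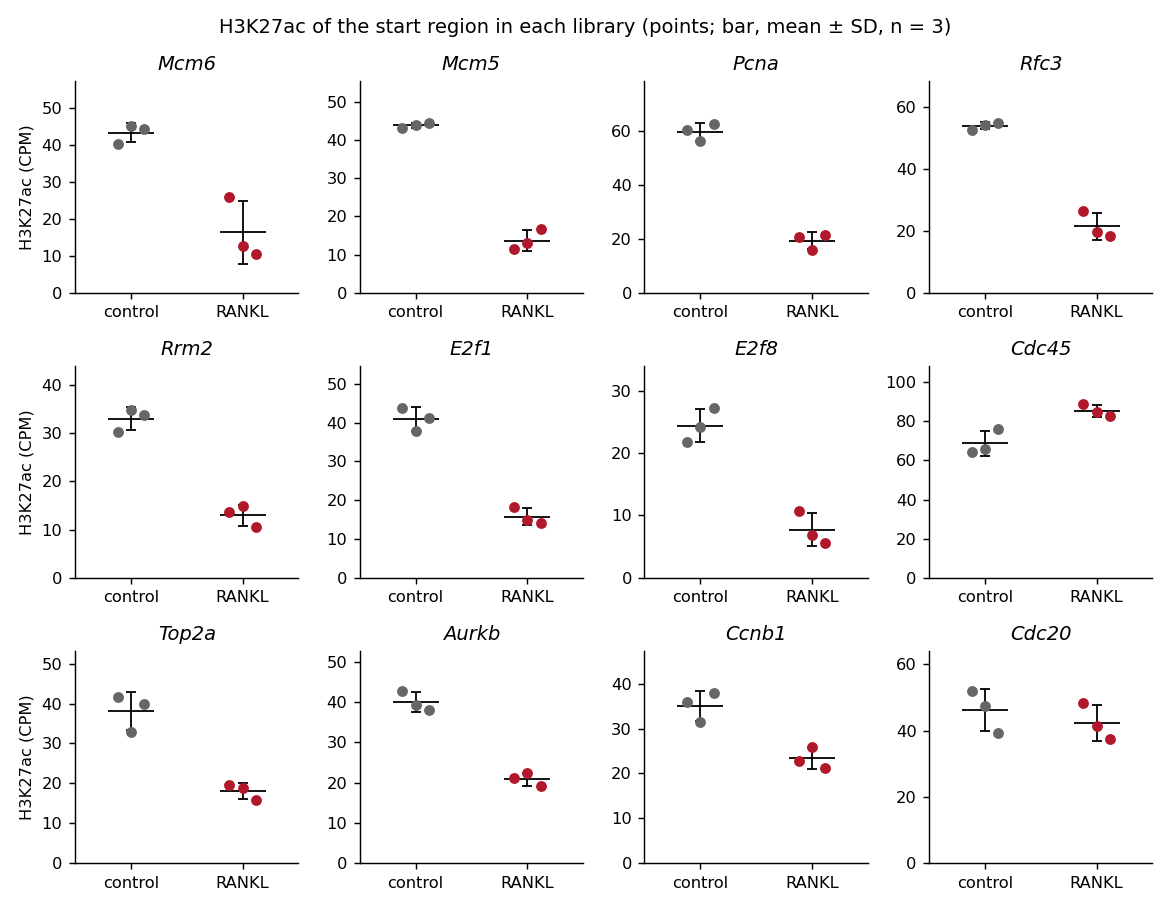
H3K27ac at the start region of 12 genes (CPM, each axis from 0) in each control (grey) and RANKL (red) library, with mean ± SD (n = 3). Groups do not overlap for 11 genes, of which 10 are lower and Cdc45 is higher, and Cdc20 overlaps.

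Among polymerase, primase and clamp genes 4 of 6 fell per gene, and all 6 start regions were lower. Pcna, the sliding clamp, had the lowest log2 fold per gene of the 52 genes (-1.44). Its start, shared with Cds2, went from 60.3, 56.1 and 62.6 to 20.7, 15.7 and 21.5 CPM. The start region fell by 1.62 ± 0.13 on the log2 scale (adjusted p = 7.32e-29), without overlap. Rfc3, a subunit of the clamp loader, went from 52.6, 54.2 and 54.8 to 26.4, 19.6 and 18.3 CPM (log2 fold -1.35 ± 0.13), and a region 34.9 kb outside it also fell, by 0.98. Rfc4, of the same complex, went from 67.8, 64.4 and 63.6 to 38.6, 30.2 and 29.9 CPM, and its start fell by 1.00 ± 0.12 on the log2 scale. Pole, the leading-strand polymerase, fell by 0.84 at a start shared with Pxmp2 and rose by 1.50 ± 0.20 in a region inside the gene. Pola1 fell by 0.36 per gene, and lost the call with the signal trend removed (adjusted p = 0.122) and without control replicate 1 or 2, or RANKL replicate 1 or 2 (adjusted p = 0.0774 to 0.142).

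All 4 genes of nucleotide supply fell, with a median of -0.92 per gene. Rrm2, the regulated subunit of ribonucleotide reductase, had 6 regions, of which 5 were lower. Its start went from 30.3, 34.9 and 33.8 to 13.6, 14.8 and 10.6 CPM (log2 fold -1.37 ± 0.16). A region 9.49 kb outside went from 26.7, 27.4 and 28.9 to 7.85, 7.25 and 8.44 CPM (log2 fold -1.81 ± 0.19, adjusted p = 1.71e-18). Its start and other regions did not differ in their change beyond error (interaction 0.16 ± 0.20, adjusted p = 0.575). Rrm1, the large subunit, went from 45.4, 50.7 and 57.2 to 21.8, 25.4 and 27.5 CPM (log2 fold -1.02 ± 0.13). Tyms, which makes thymidylate, went from 47.5, 43.0 and 42.2 to 20.4, 23.6 and 16.2 CPM (log2 fold -1.16 ± 0.14). Tk1, thymidine kinase, fell by 0.31 per gene in a region shared with Afmid, and lost the call with the signal trend removed (adjusted p = 0.273) and without control replicate 3 (adjusted p = 0.127) or RANKL replicate 2 (0.0775).

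Of the 5 E2F factors, 2 fell per gene and 1 rose, and all 4 start regions were lower. E2f1, an activator of S phase genes, went from 43.9, 37.8 and 41.1 to 18.2, 14.8 and 14.2 CPM at its start (log2 fold -1.39 ± 0.15, adjusted p = 3.48e-18). E2f8, an atypical repressor, went from 21.8, 24.2 and 27.2 to 10.7, 6.94 and 5.55 CPM (log2 fold -1.71 ± 0.20), with no overlap in either gene. E2f7, its relative, fell by 1.00 at the start, and the difference in log2 fold between its start and its other regions was -1.11 ± 0.29. E2f3, an activator, had 139, 132 and 141 CPM per gene in controls and 164, 148 and 147 CPM with RANKL. It was called higher by 0.15 ± 0.06, with the replicate block at adjusted p = 0.052. That call was also lost without control replicate 1 or 2 or RANKL replicate 1 (adjusted p = 0.0684, 0.139 and 0.213). Its start fell by 0.27, and a region 44.9 kb outside rose by 0.68. E2f2 had no start region, and a region inside it fell by 0.85.

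G1 and S cyclins and their partners were mostly not called: of 6 genes 1 fell and 1 rose per gene. Cdk2, the kinase of S phase entry, went from 56.4, 58.4 and 59.8 to 28.2, 26.3 and 29.7 CPM in a region near Pmel (log2 fold -1.05 ± 0.12, adjusted p = 5.80e-15). Ccnd1, cyclin D1, with 8 regions, had 184, 187 and 168 CPM per gene in controls and 201, 199 and 196 CPM with RANKL. It was called higher by 0.14 ± 0.06, and the call was lost with the signal trend removed (adjusted p = 0.52) and without control replicate 3 or any 1 RANKL library. Neither of its 2 start regions, placed by gene ends and not by a RefSeq start, was called. With starts scaled on their own, the gene was called higher (0.32, adjusted p = 0.00065). Ccne2 (cyclin E2) had 57.2, 53.3 and 59.2 CPM in controls and 49.7, 49.5 and 46.0 CPM with RANKL, and was not called (log2 fold -0.22 ± 0.10 per gene, adjusted p = 0.0533). Ccnd2 (cyclin D2) was not called per gene, while a region inside it fell by 1.46 and one 54.3 kb outside rose by 1.85. Ccne1 (cyclin E1) and Cdc25a, the phosphatase that activates Cdk2, each fell at the start, by 0.78 and 0.66.

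Mitotic cyclins, kinases and the APC activator Cdc20 had 4 of 8 genes lower and none higher. Aurkb, a kinase of chromosome attachment and cytokinesis, went from 42.7, 39.4 and 38.1 to 21.1, 22.3 and 19.0 CPM at its start (log2 fold -0.95 ± 0.14, adjusted p = 2.80e-10). Plk1, polo-like kinase, went from 36.1, 40.5 and 29.8 to 20.7, 22.6 and 23.9 CPM. Its start region fell by 0.67 ± 0.14, and the call per gene was lost without control replicate 2 (adjusted p = 0.057). Ccna2, cyclin A2, went from 40.8, 30.7 and 37.9 to 22.9, 25.7 and 20.0 CPM in a region shared with Bbs7 (log2 fold -0.66 ± 0.14). Ccnb1, cyclin B1, fell by 0.58 at its start, and its call per gene was lost with the signal trend removed (adjusted p = 0.0804) and without control replicate 3 (0.0518) or RANKL replicate 3 (0.0604). Cdk1 and Aurka, the kinases of mitotic entry and the spindle pole, fell at the start by 0.53 and 0.38 and were not called per gene, nor at the start with the signal trend removed (-0.24 and -0.12). The starts of Cdc20 (log2 fold -0.14) and Ccnb2, cyclin B2 (-0.34), were not called. The start region of Aurka is shared with Cstf1. With starts scaled on their own, Aurkb alone of these genes was called lower (-0.58, adjusted p = 0.000107). Plk1, Ccna2 and Ccnb1 were then not called (-0.30, -0.29 and -0.21).

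Spindle, checkpoint and chromosome genes had 3 of 8 lower and 1 higher per gene, with 7 of 8 start regions lower. Top2a, which untangles chromosomes, went from 41.7, 32.8 and 39.9 to 19.6, 18.7 and 15.7 CPM (log2 fold -1.08 ± 0.15, adjusted p = 6.86e-12). Bub1b, of the spindle checkpoint, fell by 0.79 at the start, and Cenpf, of the kinetochore, by 0.95. Kif11, a spindle motor with the highest control start level of the mitotic genes, went from 109, 101 and 116 to 71.4, 74.9 and 54.5 CPM (log2 fold -0.71 ± 0.11). Its call per gene was lost without RANKL replicate 3 (log2 fold -0.14, adjusted p = 0.163). With starts scaled on their own, Top2a, Cenpf and Kif11 were called lower (-0.71, -0.58 and -0.34). Bub1b was then not called (-0.42, adjusted p = 0.0506).

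Mki67, whose protein Ki-67 is the standard marker of cycling cells, rose per gene by 0.44 ± 0.07, and its regions away from the start, fitted alone, by 0.46. At the start it had 46.6, 44.5 and 37.3 CPM in controls and 37.8, 30.5 and 30.6 CPM with RANKL, a fall of 0.39 ± 0.13 (adjusted p = 0.00698) in which single libraries overlapped. That fall is near the median of all starts (-0.35) and was not called with the signal trend removed (-0.08, adjusted p = 0.655). A region 4.50 kb outside went from 4.06, 6.38 and 6.00 to 20.0, 23.8 and 22.7 CPM, a rise of 1.99 ± 0.22 (adjusted p = 1.68e-17). Regions inside the gene rose by 1.15 and 0.47. The start minus elsewhere difference in log2 fold was -0.52 ± 0.15 (interaction adjusted p = 0.00564).

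Of the mitotic transcription factors, 1 of 2 was called per gene. Mybl2 (B-Myb, of the MuvB complex) had 26.9, 35.5 and 37.4 CPM per gene in controls and 51.9, 42.2 and 37.1 CPM with RANKL. It was higher by 0.37 ± 0.12, with overlapping libraries, and lost the call without control replicate 1 (adjusted p = 0.11) or RANKL replicate 1 (0.143). Its start region was not called (log2 fold 0.10), nor was it with the signal trend removed (0.30). With starts scaled on their own, the gene was called higher (0.47, adjusted p = 0.0151). Foxm1 had 47.0, 49.6 and 49.1 CPM in controls and 52.3, 41.0 and 38.1 CPM with RANKL. Its log2 fold per gene was -0.17 ± 0.11, not called, except without RANKL replicate 1 (-0.30, adjusted p = 0.0281). Its only region is at the start and is shared with Rhno1. Values per gene and per region therefore come from the same reads, scaled differently. Fitted per region it fell by 0.34, and with starts scaled on their own it was not called (0.02).

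The 2 kinase inhibitors moved in opposite directions. Cdkn1a (p21), at 57.7, 50.2 and 60.5 CPM per gene in controls, had 69.2, 70.0 and 68.2 CPM with RANKL, a rise of 0.31 ± 0.09. That call was lost without control replicate 2 (adjusted p = 0.0597), and its start region was not called (log2 fold 0.08). With the signal trend removed, that start region was called higher (0.37, adjusted p = 0.00066). With starts scaled on their own, the gene was also called higher (0.46, adjusted p = 1.07e-05). Cdkn1b (p27), which holds cells in quiescence, fell per gene by 0.53 ± 0.06, from 182, 177 and 177 to 124, 116 and 130 CPM. All 3 of its regions fell, most of all one 4.69 kb outside, from 26.5, 28.5 and 28.3 to 8.21, 7.85 and 9.40 CPM (log2 fold -1.70 ± 0.19, adjusted p = 3.28e-17). The start and a region 2.12 kb outside each fell by 0.59.

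Away from starts the picture was mixed. Of 71 other regions of the genes 14 were higher and 11 lower, against 17.0% and 14.4% over all such regions. The 14 became 8 without control replicate 3 and 8 with DESeq2. S phase genes had 8 higher and 9 lower of 48, and mitotic genes 6 higher and none lower of 20. Start and other regions could be compared within 24 of the genes: at 10 the start changed in the lower direction relative to the rest and at 2 in the higher (background 19.7% and 19.0%). The 10 were Mcm5, Pole, Gins2, E2f8, E2f7, Cenpf, Mcm3, Kif11, Ccne1 and Mki67, and the 2 were Cdkn1b and Ccnd1. That test scaled starts and other regions separately, so it is relative to the general fall of starts.

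**Figure D5:**
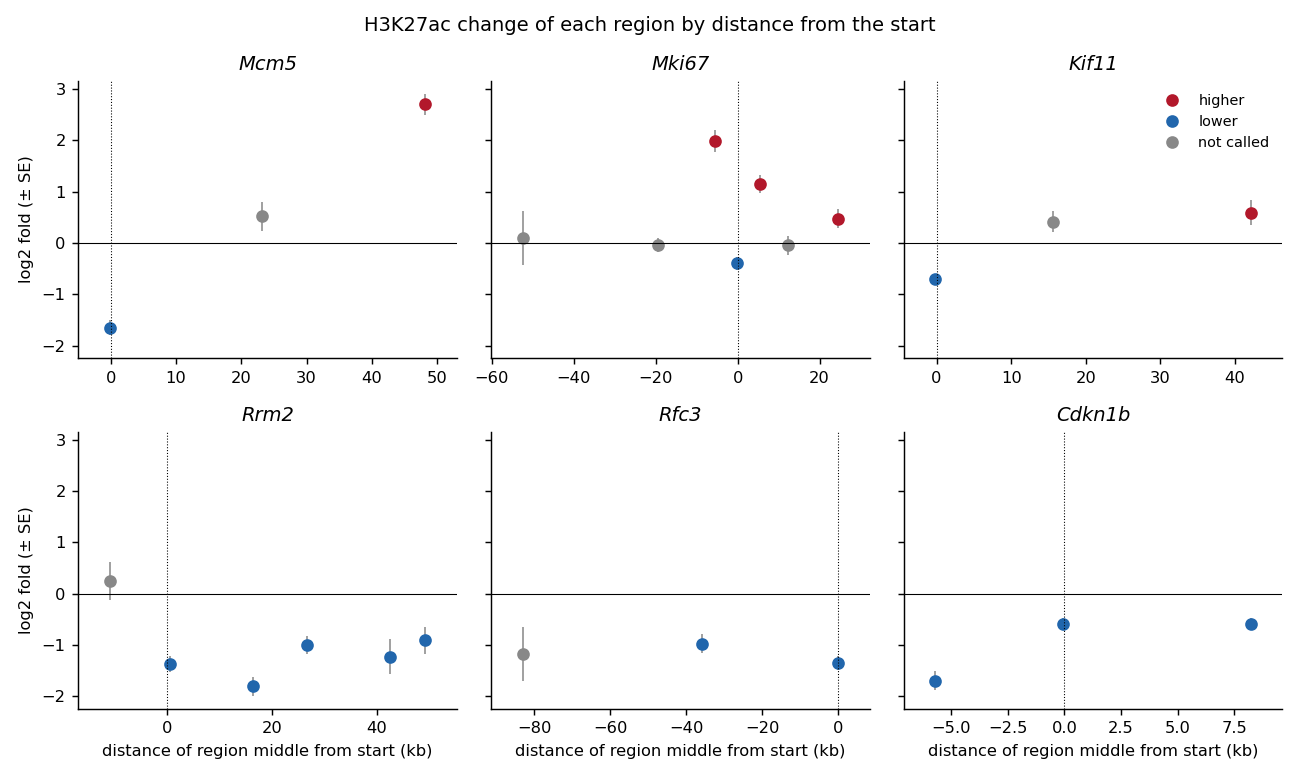
Log2 fold (± SE, vertical axis) of each H3K27ac region of 6 genes by its distance from the start (kb, negative before the start). Mcm5, Mki67 and Kif11 have a lower start (blue) and higher regions elsewhere (red), while the called regions of Rrm2, Rfc3 and Cdkn1b are all lower.

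Start changes were also set against the promoter letters. The start regions of 12 S phase genes with E2F letters had a median log2 fold of -0.92 (-1.65 to -0.27), and those of 12 without had -1.09 (-1.71 to 0.31). Mitotic genes with CHR letters had a median of -0.59 (n = 11), and the 4 without had -0.34. S phase genes with CHR letters had -0.46 (n = 5), and the 19 without had -1.02. These are descriptions over few genes, with no test.

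Other genes of the same pathways were read from 4 lists drawn up by pathway. Of 45 further S phase genes 36 were lower and 4 higher per gene, against 27.1% and 25.5% of all genes. Their median log2 fold was -0.58. Uhrf1, which maintains DNA methylation, fell by 1.13, Rpa2, of the single-strand binding complex, by 1.03 and Chek1, the checkpoint kinase, by 1.25. Dut, which removes dUTP, rose by 1.33 ± 0.09, Pold1, of the lagging-strand polymerase, by 0.74 and Brca1, of DNA repair, by 0.22. In fits of starts alone Dut and Pold1 were called lower (Dut -0.37, Pold1 -0.56), and in fits of the other regions both were called higher (2.95 and 1.95).

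Of 58 further mitotic genes 34 were lower and 6 higher (median -0.41), against 27.1% and 25.5% of all genes. Ncaph, a condensin subunit, fell by 1.05, Lbr, of the nuclear envelope, by 1.00 and Kif15, a spindle motor, by 0.77. Aspm, a spindle pole protein, rose by 1.21, Melk, a kinase, by 0.98 and Pttg1, securin, by 0.74. Among 20 other brakes of the cycle with a region 5 were higher and 8 lower, against 25.5% and 27.1% of all genes. Cdkn2b (p15) rose by 1.18 ± 0.06, from 88.3, 90.7 and 93.7 to 201, 207 and 211 CPM, and Btg1 and Ccng2 by 0.60 and 0.47. Rbl1 (p107), Cdkn2c (p18) and Btg2 fell by 0.81, 0.68 and 0.54. Of 9 G1 drivers 3 were higher (Cdk6, Mycn and Ccna1, by 0.65, 0.62 and 0.56) and 3 lower (Skp2, Cdk4 and Myc, by 0.39, 0.37 and 0.20). Those counts stand against the same 25.5% and 27.1% of all genes. In fits of starts alone Cdk6, Mycn and Ccna1 were not called (0.05, 0.19 and 0.43). There Skp2 and Myc were called lower (-0.75 and -0.41), and Cdk4 was not called (-0.17).

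ONECUT2 sites near the genes come from the authors' deposited table, which lists 7268 sites, 7261 of them higher with RANKL. The highest adjusted p that the authors list is 0.0496, so sites with no called change are absent. The share of sites that rose is therefore that of a selected list. By the nearest-span rule used for regions, 11 listed sites went to 10 of the 53 genes (18.9%, against 20.9% of all 21900 genes). All 11 were higher, with a median log2 fold of 1.72 (1.86 over all sites). In the authors' deposited table, the largest folds were 2.41 at Mcm6, 1.90 at Ccnd2, 1.86 at Gins1, 1.80 at Ccnb1 and 1.74 at Aurka. The Mcm6 site lies inside the gene, 3.94 kb after its start. Of the 11 sites, 3 were at a start, against 13.3% of all sites given to a gene. Of the 11, 4 overlapped an H3K27ac region, and the share over all listed sites is not given here. Those at the starts of Mcm3, Ccnb1 and Aurka lay in regions whose acetylation fell, that of Aurka being shared with Cstf1. The site near E2f3 lay in the region 44.9 kb outside that rose.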

How the data were processed

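H3K27ac and ONECUT2 ChIPmentation libraries came from mouse organoids. The H3K27ac table holds raw whole-number read counts per region of 2000 bp, deposited by the authors. A second deposited table is a score, the standardised log of count plus 1, and was used in 1 alternative. The authors' deposited ONECUT2 table comes from DiffBind (submitters' processing notes) and gives log2 mean counts, log2 folds and p-values per site, per the file headers. Per the submitters' processing notes, mm10 was the genome. Which aligner, peak caller and ONECUT2 normalisation were used is not given in the sources used here. Every one of the 14 libraries was grouped from its labels; input libraries were not used, nor ONECUT2 values by library.

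Genes came from a RefSeq table of GRCm38.p6 (21900 protein-coding spans). Regions within 100 kb went to the nearest span, and 2004 regions equally near to several spans counted for each. Giving them to 1 gene left 7 of the 53 genes, Mcm2 among them, without a region. The main test was that of edgeR 4.0.16 in R 4.3.3 (TMM, filterByExpr, quasi-likelihood, Benjamini-Hochberg adjusted p under 0.05), per gene, per region, and for the interaction of start and other regions with library as a block. SE is the log2 fold divided by the square root of F. Alternatives used DESeq2 1.42.0 and limma 3.58.1. Tested on simulated data, the per-gene test recovered 84% of 100 genes changed by 1 log2 unit and 16% of 100 changed by 0.5. The simulated spread between libraries was larger than the fitted one (coefficient of variation 0.053 per gene, 0.0995 per region). These shares therefore do not give the power of the test on the real libraries. Precision is limited by read depth, given per library group in the report.

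The rule for named genes gave values per library for the 3 genes of each role with the smallest adjusted p, plus Mki67, Pcna, Ccnd1, Cdkn1a and Cdkn1b; genes of other lists were the 3 with the smallest adjusted p in each direction. Mcm5, Cdc45 and further regions were added after their values were seen. The genes and lists were chosen with earlier results of these data known. Replicate numbers mark the differentiation experiment, per the labels, and so pair the libraries; deviations of same-numbered libraries correlated at 0.03, -0.05 and -0.04. Libraries of a group differed by more than sampling noise (chi-square per degree of freedom 1.80 to 2.06).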

Additional observations from a re-analysis of the deposited data

How the results depend on the processing

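Of the 52 genes, 25 to 31 were lower and 3 to 7 higher under DESeq2, library size scaling, trend removal, no filter, the replicate block, each left-out library, a 10 kb limit, 1 gene per region and the deposited score with limma. Exceptions in size were 3 higher without RANKL replicate 1 (3 to 5 over left-out libraries) and 3 with each region given to 1 gene. That last setting leaves 7 of the 53 genes, Mcm2 among them, without a region, so they cannot be called. The replicate block gave 28 lower and 5 higher, and among the per-gene calls of the 52 genes changed that of E2f3 alone. DESeq2 did not call Mcm7, Pola1, Tk1, Ccnd1 and E2f3, trend removal did not call Ccnb1, Mcm7, Pola1, Tk1, Ccnd1 and E2f3 and called Bub1, Cenpe, Mcm5, Pole and Prim1, and limma did not call Gins2, Kif11, Mybl2, Ccnd1 and E2f3. Calls over all genes numbered 8880, 5619 from starts alone and 5331 away from starts. Starts alone left 4 mitotic genes lower. Away from starts, added after seeing the data, 5 genes were lower, of which 4 act in S phase and 0 in mitosis. Other regions called higher numbered 8 with DESeq2 and 8 to 13 over left-out libraries, the lowest without control replicate 3. Mitotic starts lower numbered 8 with the trend removed. With 1 TMM factor for both places, also added afterwards, 16 genes were lower at the start than elsewhere. Among the genes chosen for values per library, log2 folds changed sign for E2f3 within 10 kb (-0.0080), Mki67 at starts alone (-0.025), Kif11 with limma (0.081) and, away from starts, Ccnd1 (-0.091), E2f8 (0.060) and Kif11 (0.42). Other genes called with a changed sign were Mcm5 (-0.93) and Ccne1 (-0.57) within 10 kb, Mcm5 (-1.28), E2f7 (-0.62), Pole (-0.47) and Ccne1 (-0.41) at starts alone, and Gins2 (0.90) away from starts. The causes were not tested. The simulated data had more spread between libraries than was fitted per gene and per region. There, 60% of 100 regions and 47% of 100 start against elsewhere differences of 1 log2 unit were recovered.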
